A study of Mus musculus with 12 samples.

Results

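Poly(A)+ RNA-seq counts were compared between 2 sets of mouse cells that served as baseline controls in a study of casein kinase 1 alpha (CK1α, gene Csnk1a1) and cGAS-STING signalling. The DMSO cells are 2 libraries whose source is labelled TREX3-KO BMDM and TREX4-KO BMDM, that is, bone marrow-derived macrophages with a TREX knockout, treated with the solvent DMSO alone. What the numbers in these source labels stand for is not stated, so it is not known whether the 2 libraries have the same genotype. The knockdown controls are 2 libraries labelled MEF (mouse embryonic fibroblasts) that received the control of a CK1α knockdown. These 4 of the 12 libraries of the series were taken by label, and all 12 carry the strain label C57BL/6J. The other 8 are 2 libraries each of cells treated with SSTC3, a compound known as a CK1α activator (the same cell source as the DMSO cells), of CK1α knockdown, of CK1α overexpression and of its control (all labelled MEF). The titles of the CK1α knockdown libraries name siRNA, while those of the knockdown controls name no reagent. Dose, duration and passage are not given in the labels. Nor do the labels say that the 2 libraries of a group came from separate cultures. The p-values below therefore rest on the spread of these 4 libraries alone, and that spread may be technical. Genotype, cell source and handling differ together between the 2 cell sets and cannot be told apart. The files of the CK1α overexpression experiment list 55401 features against 54532 in the others, with 54100 shared. Levels set against those libraries below may therefore differ by counting, which was not tested.

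Fibroblasts are mesenchymal cells that secrete collagens and other matrix proteins, and their transcription factors, Hox genes and imprinted genes record the body region and developmental age they came from. Macrophages are phagocytes recognised by surface receptors such as Csf1r, Adgre1 (F4/80) and Ptprc (CD45). TREX1 is a nuclease that removes cytosolic DNA. Where such DNA persists, the sensor cGAS makes cyclic GMP-AMP, STING is activated, type I interferon is secreted, and interferon-stimulated genes are switched on.

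The labelled cell types were checked first. In the DMSO cells Adgre1, Spi1 and Ptprc had 0 counts in both libraries, Lyz2 had 1 and 0 counts, and Csf1r had 6 and 5. Of the 21 macrophage markers 12 and 14 were at 0 counts in the DMSO cells, and the whole list summed to 10.6 and 10.4 CPM (counts per 1000000 counts, here of the library total). The same list summed to 277 and 270.4 CPM in the knockdown controls, most of it from Cd68, a lysosomal glycoprotein, with 4048 and 4389 counts there and 41 and 39 in the DMSO cells. In the knockdown controls Adgre1 had 0 counts in both libraries, Csf1r had 1 and 1, and Ptprc had 1 and 2. Spi1 had 14 and 9 counts there, and Lyz2 had 52 and 68. Fibroblast markers summed to 9378 and 9087 CPM in the DMSO cells and to 3614 and 3564 in the knockdown controls. Most of the knockdown control sum came from Vim, a general mesenchymal gene, so it says little about fibroblast identity there. The DMSO libraries therefore carry a BMDM label and mesenchymal RNA, with the defining macrophage genes at or near 0, and they are called DMSO cells below. Epithelial markers summed to 5.22 and 6.47 CPM against 26.1 and 32.8, mesothelial genes to 10.2 and 8.67 against 78.3 and 82.7, and pluripotency and germ cell genes to 7.62 and 5.64 against 16.4 and 20.1. Genes of other mesenchymal and neural fates summed higher: cartilage and bone genes to 533 and 554 CPM against 1806 and 1838, endothelial and mural genes to 115 and 119.7 against 818 and 784, adipose genes to 219.9 and 217 against 495 and 506, smooth muscle genes to 1319 and 1328 against 936 and 927, and neural genes to 187 and 192 against 39.1 and 42.4. Single genes can make up such sums. Dlk1 gave most of the adipose sum in the DMSO cells, and Cspg4 most of the endothelial and mural sum in the knockdown controls.

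The labelled TREX knockout could not be checked at Trex1, a gene that the source labels do not name. Trex1 (chr9:109057933-109059734) had 0 counts in all 12 libraries, and 100% of its exonic bases in the GENCODE vM21 annotation (mm10) also belong to Atrip, so a read there cannot be assigned to 1 gene. Csnk1a1, the gene the study manipulates, read 390.3 and 406 CPM in the DMSO cells and 345 and 373 CPM in the knockdown controls, a log2 difference of 0.15 ± 0.05 (SE, adjusted p = 0.0089 in the edgeR test described below). Without DMSO replicate 2 it was 0.14 (adjusted p = 0.057, edgeR) and without knockdown control replicate 1 it was 0.09 (adjusted p = 0.097, edgeR), so the call does not hold without either library. The 6 casein kinase 1 genes were all higher in the DMSO cells, 1 of them past a 2-fold test, Csnk1g3 (63.0 and 66.2 against 20.05 and 21.7 CPM).

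The 4 libraries held 16063627 to 17843704 counted fragments. Genes with at least 1 count numbered 20266 and 20552 in the DMSO cells and 22571 and 22950 in the knockdown controls. After a filter on low counts 15572 genes were tested with edgeR's quasi-likelihood test, and 13182 of them (84.7%) differed at a Benjamini-Hochberg adjusted p under 0.05, 6336 (40.7%) higher in the DMSO cells and 6846 (44.0%) lower. At least a 2-fold difference was called for 7496 genes (48.1%), 3286 (21.1%) higher and 4210 (27.0%) lower. With most genes called, a call alone says little about a gene, so sizes and levels are given below, and the counts within gene groups are to be read against those shares. Log2 differences are DMSO minus knockdown control with the SE of the fit, and levels are CPM with TMM-scaled library sizes in DMSO 1 and 2 and then in knockdown control 1 and 2. Medians of gene groups are given relative to the median of all genes tested, which was -0.06. Unless a gene is said not to have passed, both DMSO libraries lay on the same side of both knockdown controls for every gene given with a difference, with no overlap. The strand setting of the counting is not given in the sources used here, so values are less certain for genes that share exonic bases with a neighbour, here Cdkn1c (30.7%), Pdgfa (26.1%), Ccnd1 (23.4%), Mest (23.1%), Tbx18 (20.6%), Gas1 (19.9%), Cdk4 (19.7%), Gadd45a (19.1%), Spp1 (18.8%) and Sqstm1 (17.3%). In bulk RNA, fewer cells of a type and less RNA per cell cannot be told apart.

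**Figure D1:**
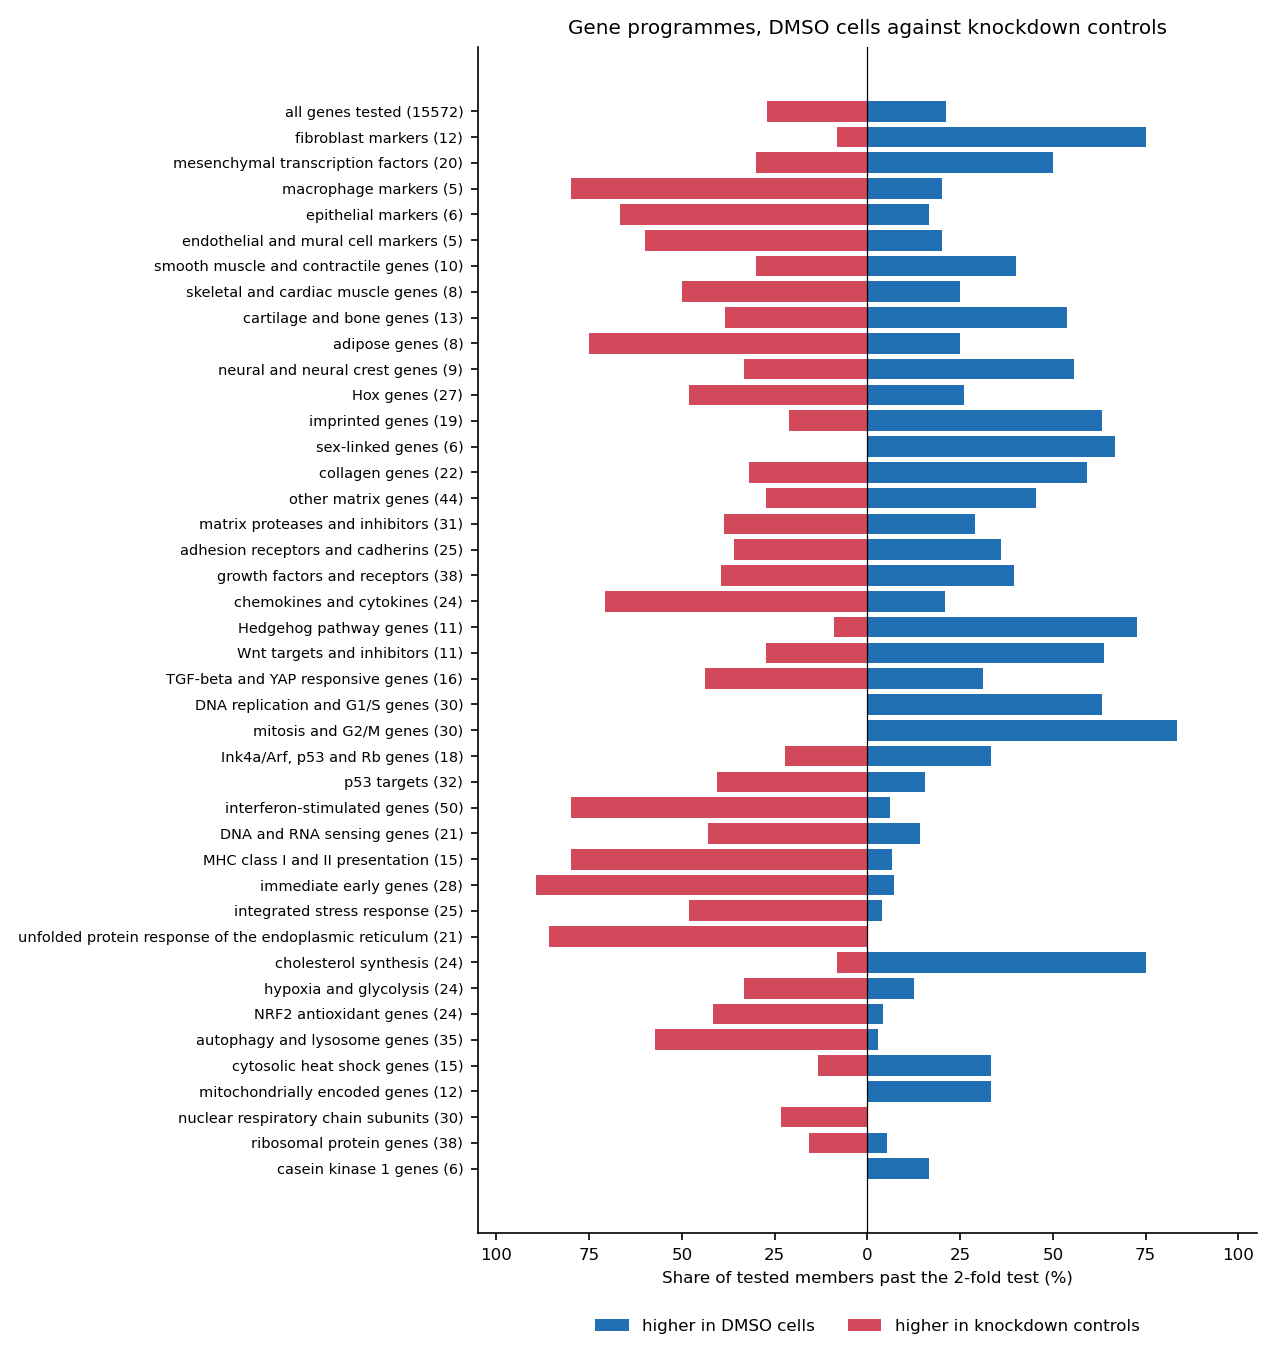
Share of the tested members of each gene group (number tested in brackets) that passed the 2-fold test, to the right for genes higher in the DMSO cells and to the left for genes higher in the knockdown controls. Over all genes tested the shares are 21.1% and 27.0%, and mitosis and G2/M genes reach furthest to the right, while immediate early genes and the unfolded protein response lie almost wholly on the left.

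The 2 cell sets differed by genes that one of them did not read at all. At least 10 CPM in both DMSO libraries with 0 counts in both knockdown controls was found for 135 genes (1.53% of the 8849 genes at 10 CPM in the DMSO cells), and the reverse for 97 genes (1.08% of 8995). With 5 CPM as the level the classes held 168 and 161 genes, so their difference in size depends on that level. Of the first class 133 were protein coding, and of the second 72, with 13 lincRNA genes. For a gene at 0 counts the fold difference is a lower bound, computed against 3 counts per library.

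Genes read only in the DMSO cells were led by Peg10, a paternally expressed gene derived from a retrotransposon, at 857 and 885 CPM (at least 4637-fold higher). Next came Ckap4, a membrane protein of the endoplasmic reticulum (355 and 342 CPM, at least 1854-fold), Epb41l3, a membrane skeleton adaptor (335 and 332 CPM, at least 1776-fold), and Cdkn2a, which encodes the p16Ink4a and p19Arf growth inhibitors (336 and 319 CPM, at least 1744-fold). Cxcl12, the stromal chemokine that binds Cxcr4, stood at 245 and 242 CPM (at least 1296-fold), and Dlk1, an imprinted inhibitor of fat cell differentiation, at 176 and 176 CPM (at least 937-fold). Ubqln2 (at least 867-fold), Trim44 (at least 762-fold), Cd24a (at least 659-fold), Sox12 (at least 649-fold) and Stard4, a cholesterol carrier (at least 567-fold), belonged to the same class. Lox, which cross-links collagen, missed it by 1 read: 11530 and 11807 counts against 1 and 0.

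Genes read only in the knockdown controls were led by Tpsab1, a mast cell tryptase, at 1666 and 1601 CPM (at least 9770-fold higher than in the DMSO cells). Pnma5 (332 and 304 CPM, at least 1902-fold), the secreted phospholipases Pla2g2e (at least 1228-fold) and Pla2g5 (at least 1062-fold), the ribosomal protein paralogue Rpl39l (at least 1159.8-fold) and the small heat shock protein Hspb8 (at least 1150.3-fold) followed. H2-M10.1, a nonclassical MHC gene (at least 990.1-fold), the costimulatory receptor Cd40 (139 and 133 CPM, at least 814-fold), Trarg1 (at least 579-fold) and Ccrl2 (at least 498-fold) also belonged to the leading set. The list of dendritic, lymphoid, neutrophil and mast cell markers summed to only 4.61 and 4.26 CPM of the total in the knockdown controls and to 16.7 and 13.3 in the DMSO cells, so Tpsab1, which is not on it, was read without a broader mast cell set.

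The classes were followed in the other libraries. Of the 135 genes, 117 were at 10 CPM or more in both SSTC3 libraries and 90 at 0 counts in both CK1α knockdown libraries. Of the 97 genes, 75 were at that level in both CK1α knockdown libraries and 49 at 0 in both SSTC3 libraries. The control libraries of the overexpression experiment, also labelled MEF, sided with the DMSO cells at the level of 10 CPM: 87 of the 134 genes they list from the first class were at 10 CPM or more in both of them, against 6 of the 97 genes of the second. At 0 counts in both of them were 15 of those 134 genes and only 19 of the 97, so most genes of the second class were detected there at low levels. Neighbours were taken among tested genes with a mean of at least 10 CPM in the higher set. For 117 of 132 genes of the first class and 82 of 97 of the second, neither neighbour belonged to the same class. As the classes hold only 1.53% and 1.08% of the genes read at 10 CPM, these counts do not show that the genes are scattered.

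The promoters of the 2 classes are shown because their base composition differed. CG dinucleotides mark CpG islands, the stretches at which most broadly read genes start. The windows below run over the 250 bases before the start of the 3 genes of each class with the highest level and a matched promoter (RefSeq, GRCm38.p6, 5′ to 3′ on the gene's strand), with every CG in capitals. Genes read only in the DMSO cells were Ckap4 (chr10:84533889-84534138, minus strand), Epb41l3 (chr17:69075427-69075676, plus strand) and Cdkn2a (chr4:89294620-89294869, minus strand).
Ckap4: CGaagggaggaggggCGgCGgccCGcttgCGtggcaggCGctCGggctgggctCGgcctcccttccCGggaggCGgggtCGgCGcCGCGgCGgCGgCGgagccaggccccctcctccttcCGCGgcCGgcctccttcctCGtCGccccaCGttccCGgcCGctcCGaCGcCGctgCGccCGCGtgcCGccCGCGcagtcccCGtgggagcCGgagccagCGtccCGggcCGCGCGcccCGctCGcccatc
Epb41l3: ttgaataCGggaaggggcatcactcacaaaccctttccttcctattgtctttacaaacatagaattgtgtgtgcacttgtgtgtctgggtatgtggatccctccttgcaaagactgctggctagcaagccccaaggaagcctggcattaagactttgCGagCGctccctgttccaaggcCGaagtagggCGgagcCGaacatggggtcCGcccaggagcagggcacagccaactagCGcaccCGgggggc
Cdkn2a: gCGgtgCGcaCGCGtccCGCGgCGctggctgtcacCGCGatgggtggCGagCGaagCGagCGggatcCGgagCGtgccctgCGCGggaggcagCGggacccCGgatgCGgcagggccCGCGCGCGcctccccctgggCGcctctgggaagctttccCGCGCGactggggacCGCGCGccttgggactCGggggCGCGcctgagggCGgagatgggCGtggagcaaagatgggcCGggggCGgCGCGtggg
Genes read only in the knockdown controls were Pnma5 (chrX:73037104-73037353, minus strand), Pla2g2e (chr4:138877692-138877941, plus strand) and Rpl39l (chr16:10169978-10170227, plus strand).
Pnma5: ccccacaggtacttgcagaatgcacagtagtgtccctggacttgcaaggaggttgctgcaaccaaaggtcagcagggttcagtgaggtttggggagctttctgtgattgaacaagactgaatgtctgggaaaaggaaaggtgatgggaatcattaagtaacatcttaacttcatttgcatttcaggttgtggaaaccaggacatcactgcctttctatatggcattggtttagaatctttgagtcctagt
Pla2g2e: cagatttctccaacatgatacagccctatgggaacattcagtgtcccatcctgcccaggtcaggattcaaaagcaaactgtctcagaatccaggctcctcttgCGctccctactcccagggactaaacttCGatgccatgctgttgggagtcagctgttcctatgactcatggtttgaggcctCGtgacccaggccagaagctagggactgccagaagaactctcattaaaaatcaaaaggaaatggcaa
Rpl39l: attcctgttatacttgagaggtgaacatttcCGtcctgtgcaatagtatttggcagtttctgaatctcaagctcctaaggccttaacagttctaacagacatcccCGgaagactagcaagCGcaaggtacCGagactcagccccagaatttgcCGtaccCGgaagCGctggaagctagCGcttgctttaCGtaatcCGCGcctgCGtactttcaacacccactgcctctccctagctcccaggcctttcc
The Ckap4 and Cdkn2a windows are islands, with 43 and 40 capital pairs, and Epb41l3 holds 9, while Pnma5 holds 0, Pla2g2e 3 and Rpl39l 12.

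Over windows of 300 bases (250 before to 50 after the start), which matched 10759 of the tested genes, the median promoter held 20 CG dinucleotides. It held 23 among the 96 matched genes read only in the DMSO cells and 5 among the 64 matched genes read only in the knockdown controls. Fewer than 10 CG were found in 53 of those 64 windows (82.8%), in 16.7% of the windows of the DMSO class and in 20.3% of all tested genes. All genes at 10 CPM or more in both knockdown controls had a median of 22 and 11.9% under 10. The letters TATAA, searched on the gene's strand only, were in 18.8% of the windows of the knockdown control class, 8.33% of the DMSO class and 9.22% of all. These are descriptions of letters in a window, with no test.

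**Figure D2:**
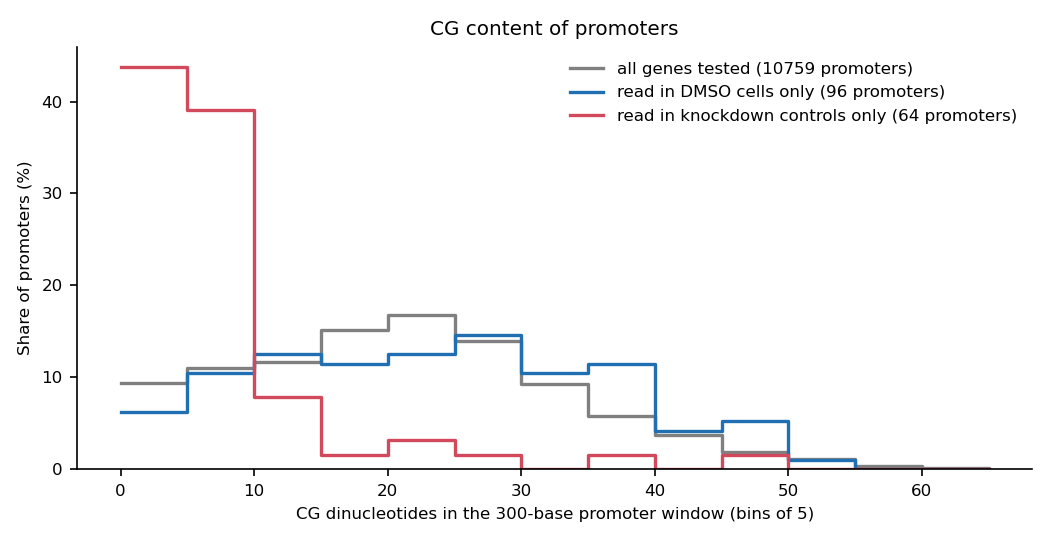
Distribution of the number of CG dinucleotides in 300-base promoter windows (bins of 5 CG, share of promoters in percent) for all genes tested, genes read only in the DMSO cells and genes read only in the knockdown controls. The last class is concentrated in the lowest bins (median 5), while the other curves are broad (medians 20 and 23).

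Most fibroblast markers were higher in the DMSO cells. Of 14 markers 12 were tested, 9 of them higher and 3 lower, and their median was 3.29 (2.74 with genes at 0 counts set to their bound). Col1a1 and Col1a2, the chains of type I collagen, were at 2705 and 2555 against 224 and 212 CPM (3.59 ± 0.05) and at 1409 and 1387 against 69.8 and 69.6 CPM (4.33 ± 0.05). Col3a1 was nearly confined to the DMSO cells, at 979.8 and 939 against 8.73 and 7.92 CPM (6.85 ± 0.07), and Fbln1, a fibulin of elastic matrix, was at 103 and 103 against 0 (at least 547-fold). The general mesenchymal marker Vim was close between the sets and lower in the DMSO cells (2431 and 2391 against 2838 and 2780.0 CPM, -0.22 ± 0.04), a call lost with library totals as the scaling (-0.06, adjusted p = 0.17, edgeR). Both receptors for platelet-derived growth factor were lower in the DMSO cells too, Pdgfra by -1.47 ± 0.09 and Pdgfrb by -0.27 ± 0.05. Dcn and Lum, markers of adult fibroblasts, had at most 20 counts in any of the 4 libraries.

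Mesenchymal transcription factors drew a line between the sets. Of 30 factors 20 were tested, 13 higher in the DMSO cells and 6 lower (median 1.63). Twist1, a regulator of mesenchymal identity, was at 48.9 and 44.3 CPM against 0 counts (at least 248-fold). Prrx1, a limb and craniofacial mesenchyme factor, was at 226 and 234 against 9.92 and 9.81 CPM (4.54 ± 0.07), and Prrx2 at 55.2 and 51.6 against 0.86 and 0.827 (5.97 ± 0.16). Zeb1, Foxc1, Foxd1 and Foxf2 were likewise at 0 to 3 counts per library in the knockdown controls. The knockdown controls in turn held Osr2 (0.72 and 0.505 against 35.2 and 38.3 CPM, -5.89 ± 0.19), Ebf1 (-3.14 ± 0.13), Zeb2 (-2.28 ± 0.08) and Snai2 (-1.99 ± 0.09). Msx1 was at 440 and 473 counts in the knockdown controls and at 0 and 1 in the DMSO cells. Tbx18 did not pass the test (12.2 and 13.4 against 11.5 and 12.3 CPM, adjusted p = 0.48).

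**Figure D3:**
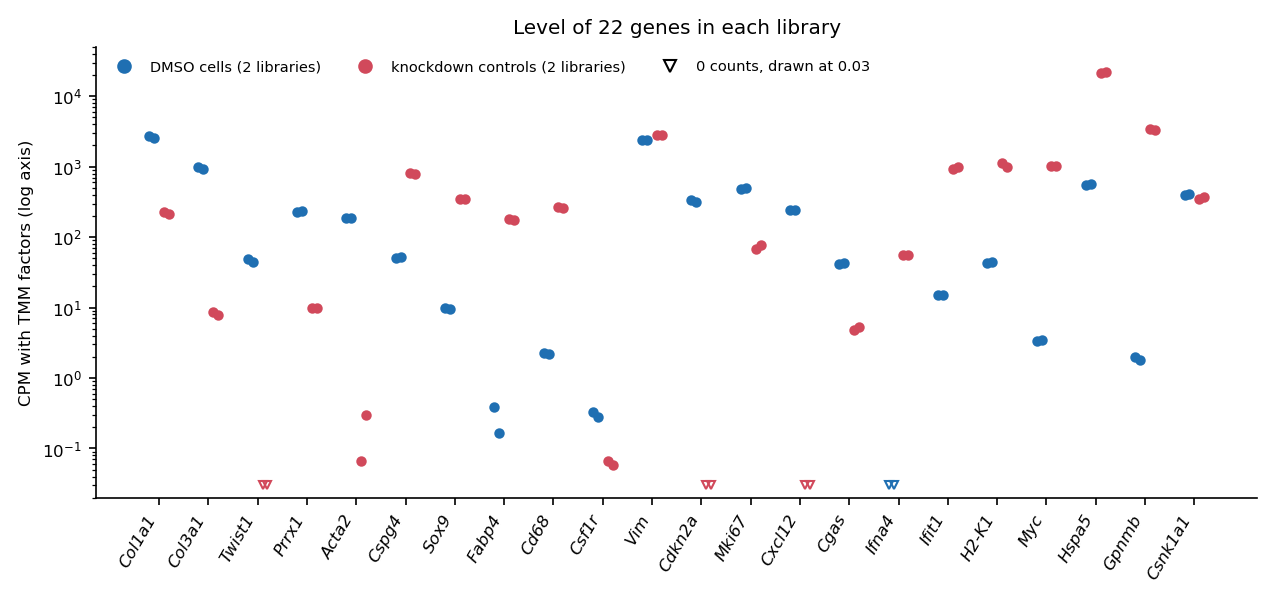
CPM of 22 genes in each of the 4 libraries on a log axis, DMSO cells on the left of each name and knockdown controls on the right, with open triangles for 0 counts. The 2 libraries of a group nearly coincide for all but Acta2 and Fabp4 at their lowest counts, and the groups lie apart by up to several orders of magnitude except for Vim and Csnk1a1.

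Hox genes, which encode position along the body axis, gave each set its own pattern. Of 39 genes 27 were tested, 10 higher in the DMSO cells and 13 lower. The DMSO cells read the anterior and middle HoxC genes most: Hoxc4 (79.8 and 83.4 against 4.63 and 3.49 CPM, 4.34 ± 0.12), Hoxc5 (5.21 ± 0.11), Hoxc6 (2.69 ± 0.08) and Hoxc8 (117 and 119.7 against 17.9 and 17.5 CPM, 2.74 ± 0.07). The knockdown controls read middle and posterior genes of 3 clusters. Among Hox genes at 10 CPM or more in the higher set, the middle gene Hoxb7 had the largest difference. Hoxb6 was also among the largest, and both were higher in the knockdown controls. Hoxc10 was at 63.4 and 57.6 CPM there and at 0.332 and 0.337 in the DMSO cells (-7.47 ± 0.18), Hoxa9 at 29.4 and 28.3 against 0.0554 and 0.281 (-7.37 ± 0.27), Hoxa10 at 27.5 and 30.2 (-5.75 ± 0.21), and Hoxb9 at 97.1 and 102 against 2.38 and 2.47 (-5.35 ± 0.11). Hoxb13, the most posterior HoxB gene, was at 125 and 127 counts against 1 and 1. Of the HoxD genes, Hoxd9 did not pass the test (21.05 and 20.1 against 20.3 and 20.6 CPM, 0.01 ± 0.10), while Hoxd8 passed it. Hoxc9 did not pass either (0.08 ± 0.11), but was called with library totals as the scaling (0.25, adjusted p = 0.049, edgeR). A second comparison, SSTC3 against CK1α knockdown, used the other libraries of the 2 cell sets and called 12928 of 15587 genes (82.9%), 41.2% higher in SSTC3 and 41.7% lower. Over all genes called at baseline and tested there, 80.8% were called in the same direction. The counts given here and below for gene groups are to be read against that share. Of 23 Hox genes called at baseline and tested there, 20 were called in the same direction and 2 in the opposite one.

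**Figure D4:**
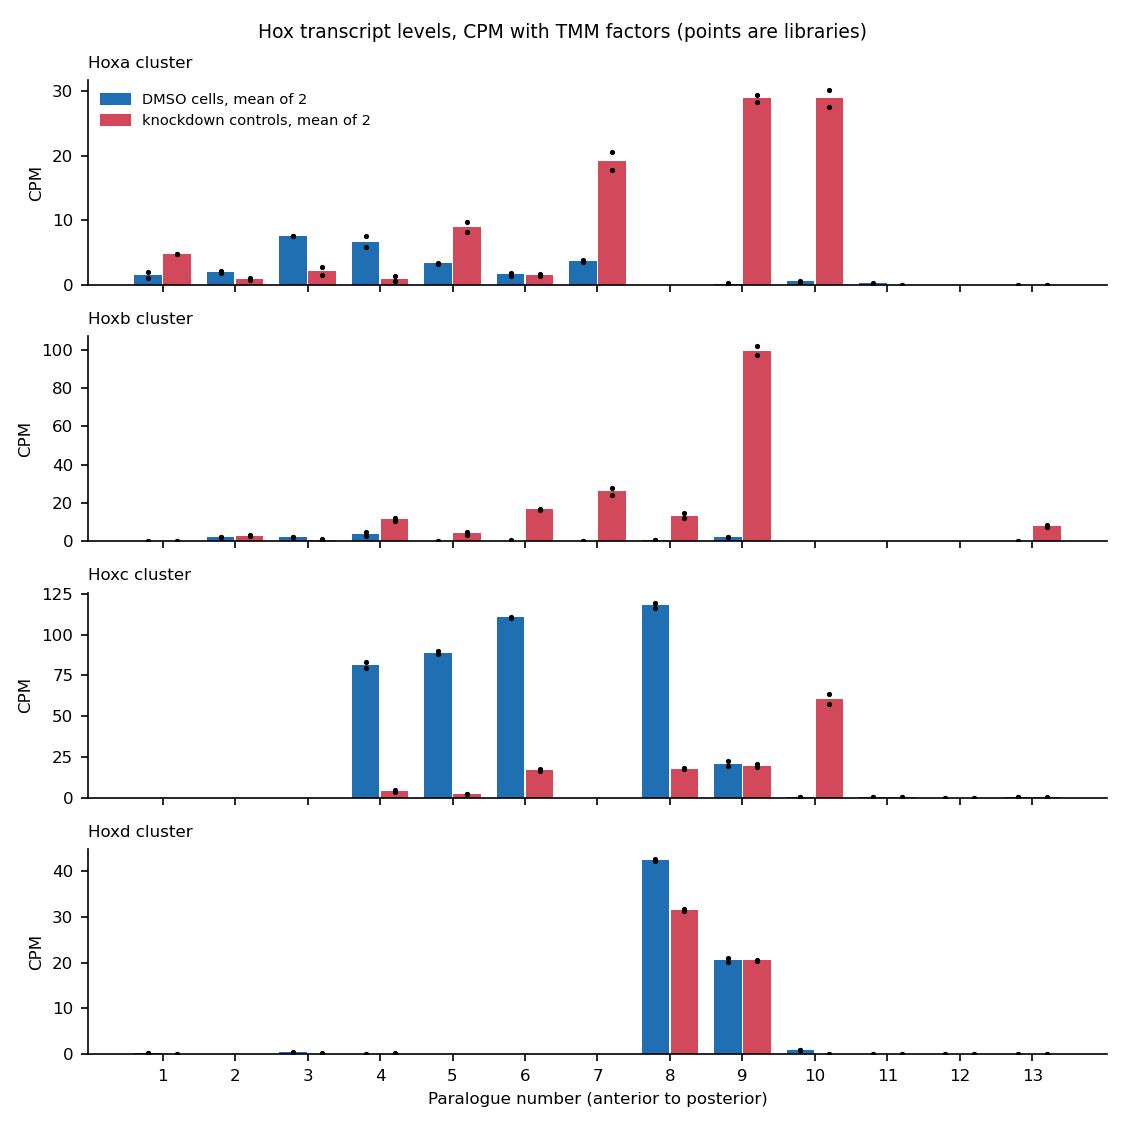
Hox transcript levels by cluster and paralogue number, with bars for the mean of 2 libraries and points for each library (CPM with TMM factors, separate vertical scale for each cluster). DMSO bars stand at HoxC 4 to 8, knockdown control bars at HoxA 7, 9 and 10, at HoxB 6 to 9 and at Hoxc10, and both at HoxD 8 and 9.

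Imprinted genes, read from 1 parental allele and high in embryonic and young proliferating tissue, were mostly a feature of the DMSO cells. Of 29 genes 19 were tested, 12 higher, all of them past the 2-fold test, and 7 lower (median 4.70, or 2.56 with bounds). Besides Peg10 and Dlk1, the growth inhibitor Grb10 was at 297 and 304 against 0.794 and 0.591 CPM (8.76 ± 0.11), and Sgce, which shares a promoter region with Peg10, at 31.6 and 30.7 CPM against 0 counts (at least 166-fold). Cdkn1c, Mest, Peg3 and Plagl1 were higher as well at lower levels (Cdkn1c 11.3 and 12.1 against 1.26 and 1.18 CPM). The reverse held for Slc22a18 (0 counts against 7.67 and 7.09 CPM, at least 44.1-fold) and for Nnat (-2.87 ± 0.22). Snrpn was also at 0 counts in the DMSO cells and at 141 and 147 in the knockdown controls, but 34.1% of its exonic bases overlap another annotated gene. Igf2r was less than 2-fold apart (-0.75 ± 0.05).

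The sex chromosomes differed. The Y-linked genes Kdm5d (20.3 and 19.3 CPM) and Uty (18.1 and 20.6 CPM) had 0 counts in both knockdown controls. Ddx3y and Eif2s3y, which lie near them on the Y chromosome and are read in most male cells, were at 0 counts in all 4 libraries. Both were also at 0 in the SSTC3 and CK1α knockdown libraries, whose files have the same feature list. In the MEF-labelled overexpression controls, counted on another list, Ddx3y stood at 57.9 and 58.9 CPM of the total and Eif2s3y at 35.0 and 34.3. Whether the counting made this difference was not tested. Xist, the RNA of the inactive X chromosome, was at 0 to 6 counts in each of the 4 libraries. The X-linked partners Kdm5c (1.22 ± 0.06), Ddx3x (1.83 ± 0.05), Eif2s3x (0.74 ± 0.05) and Kdm6a (0.62 ± 0.08) were all higher in the DMSO cells. The median log2 difference of all 466 tested genes of chromosome X was 0.63, so Eif2s3x and Kdm6a lay near it.

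Markers of other mesenchymal fates were present in fragments. In the adipose group 2 of 8 tested genes were higher and 6 lower in the DMSO cells (median -3.26). Fabp4, a fatty acid carrier of fat and endothelial cells, was at 0.388 and 0.168 against 180.5 and 174 CPM (-9.27 ± 0.14), lipoprotein lipase Lpl at 22.05 and 21.1 against 278 and 287 (-3.71 ± 0.06), Pparg, the master regulator of fat cells, at 6.76 and 5.05 against 45.7 and 44.0 (-2.92 ± 0.12), and Cd36 at 0 counts against 18.1 and 23.6 CPM (at least 125-fold). Adipoq and Plin1, genes of mature fat cells, were at most 10 counts in any of the 4 libraries. All 8 of these genes kept their direction between SSTC3 and CK1α knockdown libraries. In the cartilage and bone group 7 of 13 were higher and 5 lower (median 2.28). Sox9, the cartilage and progenitor factor, was at 9.91 and 9.59 against 347 and 348 CPM (-5.15 ± 0.07) with its cartilage target Col2a1 the other way (10.9 and 10.7 against 0.397 and 0.945 CPM, 3.96 ± 0.28), Runx3 was higher in the DMSO cells (3.57 ± 0.10), and Runx2 did not differ beyond error (adjusted p = 0.12).

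Contractile, pericyte, muscle and neural genes were split in the same way. Smooth muscle actin Acta2 was at 3417 and 3348 counts in the DMSO cells and at 1 and 5 in the knockdown controls, whereas Des (-3.94 ± 0.16) and Smtn (-1.56 ± 0.07) were lower in the DMSO cells, and of 10 tested contractile genes 5 were higher and 5 lower. Cspg4 (NG2), carried by pericytes and glial progenitors, was at 50.4 and 52.1 against 827 and 785 CPM (-3.98 ± 0.05), with the endothelial genes Pecam1, Cdh5 and Tek at 6 counts or fewer in each library. In skeletal and cardiac muscle genes 2 of 8 were higher and 6 lower, with Mef2c (4.32 ± 0.28) against Pax3 (-6.81 ± 0.35). In neural genes 5 of 9 were higher and 3 lower: Nes, an intermediate filament of progenitors, was at 71.9 and 70.2 against 1.32 and 1.06 CPM (5.90 ± 0.14) and Sox2 at 24.7 and 24.6 CPM against 0 counts (at least 131-fold), while S100b was at 256 and 251 counts in the knockdown controls and at 0 and 1 in the DMSO cells.

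Most collagen genes were higher in the DMSO cells, with exceptions among fibrillar and basement membrane chains alike. Of 24 collagen genes 22 were tested, 14 higher and 8 lower in the DMSO cells (median 1.72), and 20 of 22 were called in the same direction between SSTC3 and CK1α knockdown. Besides types I and III, Col12a1 (248 and 241 against 1.59 and 2.01 CPM, 7.07 ± 0.10), Col5a2 (3.38 ± 0.05), Col7a1 (3.90 ± 0.07) and Col6a1 (1.65 ± 0.05) were higher. The basement membrane chains Col4a1 (47.7 and 50.7 against 938 and 906 CPM, -4.23 ± 0.05) and Col4a2 (-3.79 ± 0.06) and the endostatin precursor Col18a1 (16.1 and 14.6 against 1085 and 1001 CPM, -6.08 ± 0.07) were lower, as were Col5a3 (-6.05 ± 0.07) and Col6a3 (-2.03 ± 0.05). Other basement membrane chains were higher in the DMSO cells, Col4a6 at 629 and 695 counts against 1 and 0 and its partner Col4a5 by 2.37 ± 0.07.

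Among 44 tested matrix genes of other kinds 25 were higher and 15 lower (median 0.63). The proteoglycan Bgn (1224 and 1234 against 56.5 and 58.1 CPM, 4.42 ± 0.05), versican Vcan (7.02 ± 0.11), thrombospondin Thbs1 (504 and 507 against 1.26 and 2.72 CPM, 7.96 ± 0.11), tenascin Tnc (7.77 ± 0.18) and fibronectin Fn1 (1.33 ± 0.04) were higher in the DMSO cells. Tenascin X took the opposite course: Tnxb was at 1.05 and 1.07 against 369 and 357 CPM (-8.41 ± 0.10), and Matn2 (-4.03 ± 0.06), the laminin chains Lama5 (-2.79 ± 0.05) and Lamb1 (-1.60 ± 0.05) and osteopontin Spp1 (-2.13 ± 0.04) were lower. The gelatinase Mmp2 was at 2181 and 2259 counts against 2 in each knockdown control, but proteases and inhibitors as a group were balanced, with 13 of 31 higher and 14 lower (median -0.09). Cathepsin K (Ctsk, -3.61 ± 0.14) and the urokinase receptor Plaur (-3.79 ± 0.07) were higher in the knockdown controls.

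Adhesion receptors differed member by member. Of 25 tested, 14 were higher and 10 lower, and all 22 that could be followed were called in the same direction between SSTC3 and CK1α knockdown. Itgb1, the common beta subunit of matrix integrins, was at 922 and 926 CPM in the DMSO cells and at 37.1 and 35.3 in the knockdown controls (4.67 ± 0.05). Its alpha partners did not follow it: Itga6 (4.38 and 4.88 against 243 and 253 CPM, -5.74 ± 0.08), Itga7 (-5.32 ± 0.11) and Itgav (-1.22 ± 0.06) were higher in the knockdown controls, Itga5 was within 1.5-fold (0.20 ± 0.05), and the leukocyte beta subunit Itgb7 stood at 328 and 322 CPM against 4.49 and 3.87 (-6.28 ± 0.08). Cdh11 (23.3 and 23.4 CPM against 0 counts, at least 124-fold), the mesenchymal cadherin, and Vcam1 (96.4 and 96.8 against 1.98 and 1.95 CPM, 5.61 ± 0.12) were read in the DMSO cells. N-cadherin (Cdh2) was at 1324 and 1257 counts there and at 0 and 1 in the knockdown controls, and L1cam at 3 and 0 against 2500 and 2671.

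Most genes of the Hedgehog pathway were higher in the DMSO cells, and its 2 classical targets went in opposite directions. Of 11 tested genes 10 were higher, 8 of them past the 2-fold test, and 1 was lower (median 2.25). The coreceptors Gas1 (182 and 181 against 15.2 and 14.4 CPM, 3.62 ± 0.07), Cdon (3.35 ± 0.10) and Boc (1.73 ± 0.13), the transducer Smo (1.35 ± 0.06), the inhibitor Sufu (2.19 ± 0.07) and the factors Gli3 (2.49 ± 0.09) and Gli2 (23.7 and 21.3 CPM against 0 counts, at least 119.7-fold) were higher. Of the genes whose transcription the pathway induces, the receptor Ptch1 was at 80.6 and 79.7 against 45.8 and 46.97 CPM (0.79 ± 0.07) and the factor Gli1 at 3.93 and 3.53 against 18.9 and 20.4 CPM (-2.39 ± 0.16). Between SSTC3 and CK1α knockdown 8 of 11 kept their direction and 1 was called in the opposite one.

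Wnt pathway genes were tested for 11 of 22, with 7 higher and 4 lower (median 5.18). Znrf3, which removes Wnt receptors (28.8 and 28.2 CPM, at least 152-fold), and the secreted inhibitor Sfrp2 (40.5 and 33.4 CPM, at least 197-fold) had 0 counts in the knockdown controls. The related ligase Rnf43 had 457 and 500 counts in the knockdown controls and 0 and 2 in the DMSO cells, so each set read 1 of the 2 paralogues. Tcf7 was higher in the DMSO cells (3.26 ± 0.20), and the common target Axin2 was at 5 counts or fewer in all 4 libraries.

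Growth factors and receptors were balanced in number (18 of 38 higher, 18 lower) and differed by identity. Gas6, the ligand of Axl, was at 1689 and 1623 counts against 1 and 1, and Axl itself at 221 and 221 against 76.1 and 78.7 CPM (1.52 ± 0.05). Pdgfc (75.7 and 76.4 CPM, at least 405-fold), Fgfr2 (18.4 and 20.6 CPM, at least 104-fold) and Bmp4 (6.98 and 8.25 CPM, at least 40.5-fold) had 0 counts in the knockdown controls. In those, stem cell factor Kitl (-5.60 ± 0.10), Pdgfa (-3.06 ± 0.08) and the insulin-like growth factor binding proteins Igfbp4 (6.20 and 5.72 against 449 and 456 CPM, -6.24 ± 0.07) and Igfbp6 (-4.77 ± 0.06) were higher, with Igfbp7 the other way (4.99 ± 0.11). Gdf15, a stress-induced cytokine, was at 1 and 2 counts in the DMSO cells and at 1793 and 1766 in the knockdown controls.

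Chemokines and cytokines were mostly higher in the knockdown controls: 6 of 24 were higher in the DMSO cells and 18 lower (median -3.65). Macrophage growth factor Csf1 was at 153 and 157 against 2784 and 2723 CPM (-4.15 ± 0.05), the monocyte attractant Ccl2 at 74.8 and 72.5 against 579.5 and 613 (-3.02 ± 0.05), the neutrophil attractant Cxcl1 at 42.1 and 41.9 against 709 and 739.9 (-4.11 ± 0.05) and Ccl5 at 1.72 and 1.96 against 331 and 337 (-7.50 ± 0.09). Il6 was at 0.388 and 0.112 against 130.3 and 131 CPM (-8.98 ± 0.16) and Lif at 3.38 and 3.37 against 207 and 209.9 (-5.95 ± 0.09). Cxcl12, Il1rl1 (63.8 and 58.1 against 0.662 and 0.354 CPM, 6.91 ± 0.18) and Ptgs2 (3.78 ± 0.29) went the other way. Of 23 that could be followed 18 were called in the same direction between SSTC3 and CK1α knockdown, and 3 in the opposite one.

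Proliferation genes were higher in the DMSO cells almost without exception. Of 30 mitosis and G2/M genes 30 were higher, 25 of them past the 2-fold test (median 1.94), and of 30 DNA replication and G1/S genes 28 were higher, 19 past it, and 1 lower (median 1.35). The proliferation antigen Mki67 was at 476 and 495 against 67.7 and 76.7 CPM (2.75 ± 0.06), the topoisomerase Top2a at 756 and 789 against 177 and 179 (2.12 ± 0.05), the mitotic motor Kif11 at 296 and 307 against 21.5 and 20.2 (3.86 ± 0.06) and the helicase subunit Mcm5 at 384 and 375 against 72.0 and 72.6 (2.39 ± 0.05). The smallest difference in the mitotic group was that of Mad2l1 (0.18 ± 0.07), which did not pass without DMSO replicate 2 (adjusted p = 0.11, edgeR) or without knockdown control replicate 1 (adjusted p = 0.075, edgeR), nor with DESeq2 (adjusted p = 0.081). Rrm2, a subunit of ribonucleotide reductase, was lower in the DMSO cells (-0.58 ± 0.05) although Rrm1 was higher (1.92 ± 0.05). Between SSTC3 and CK1α knockdown 29 of the 30 mitotic genes and 27 of 29 replication genes were called in the same direction. In the promoters of the mitotic group the letters of the cell cycle element CHR, TTTGAA, were in 19 of 25 matched windows (76.0%) against 12% of 10756 windows of tested genes, and CCAAT in 21 (84.0%) against 38.9%, both strands searched.

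The inhibitors of the Ink4a family were read in the same cells as the proliferation genes. Cdkn2a and Cdkn2b (24.1 and 26.9 CPM, at least 136-fold), neighbours on chromosome 4 that block Cdk4 and Cdk6, were read in the DMSO cells and had 0 counts in both knockdown controls. Their neighbour Mtap was at 3474 and 3484 counts against 127 and 175 (means of 194 and 9.37 CPM), whereas Klhl9 (means of 74.5 and 62.9 CPM) and Focad (39.8 and 28.1 CPM), further along the chromosome, were within 2-fold. Other genes of the region were not: Hacd4, beside Focad, was at 87 and 90 counts against 5 and 2, and the noncoding Gm12602, next to Mtap, at 12 and 3 against 144 and 185. Cdkn2a was read in the SSTC3 libraries and the MEF-labelled overexpression controls (320.3 and 315 CPM of the total in the first library of each) and had 0 counts in both CK1α knockdown libraries. Cyclin D1 ran opposite to the inhibitors, with Ccnd1 at 20.4 and 19.8 against 467 and 492 CPM (-4.58 ± 0.06), as did Cdk6 (-1.70 ± 0.06), while Cdk4 was higher in the DMSO cells (0.80 ± 0.05). Cdkn1a (p21), a p53 target that inhibits cell cycle kinases, was at 36.4 and 37.8 against 368 and 348 CPM (-3.27 ± 0.06). Among 32 tested p53 targets 10 were higher and 20 lower (median -0.69), including Bbc3 (-4.44 ± 0.08) and Gadd45a (-5.63 ± 0.13) but not Mdm2 at 2-fold (-0.89 ± 0.06), and 19 of 30 kept their direction between SSTC3 and CK1α knockdown, with 10 called in the opposite one. Trp53 itself was within 1.5-fold (0.30 ± 0.05).

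Interferon-stimulated genes were higher in the knockdown controls. All 50 were tested, 45 lower in the DMSO cells, 40 of them past the 2-fold test, and 4 higher (median -5.02, or -4.71 with bounds). Viperin (Rsad2) was at 3.21 and 3.14 against 1073 and 1110.3 CPM (-8.42 ± 0.07), Oasl1 at 5.76 and 6.51 against 941 and 896 (-7.22 ± 0.07), Ifit1 at 14.9 and 15.3 against 928 and 1004 (-6.00 ± 0.07) and Cxcl10 at 18.3 and 20.8 against 1368 and 1394 (-6.14 ± 0.06). The ubiquitin-like Isg15 was at 12.96 and 12.5 against 394 and 387 CPM (-4.94 ± 0.07). Members that encode the interferon response machinery differed less: Stat2 by -2.53 ± 0.07 and Irf9 by -0.74 ± 0.09. The RNA sensor kinase Eif2ak2 (2.16 ± 0.09) was higher in the DMSO cells, and Parp12 was at 365 and 389 counts there against 0 and 1. Of 49 that could be followed 47 were called in the same direction between SSTC3 and CK1α knockdown.

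Type I interferon itself was read in the knockdown controls, with the family chosen for display after its counts were seen. The Ifna genes summed to 1065 and 1147 counts in the knockdown controls and to 0 and 1 in the DMSO cells, and Ifnb1 gave 200 and 263 against 0 and 0. Ifna4 gave most of the alpha counts (845 and 942), and 10 of the 14 Ifna genes had at least 1. Reads of such closely related genes may have been assigned to the wrong copy. In CK1α knockdown the Ifna sum was 146 and 145 and Ifnb1 131 and 108, in SSTC3 the sums were 12 and 8, and in the MEF-labelled overexpression controls 0 and 1.

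The interferon-stimulated response element is the promoter sequence through which many of these genes are switched on. Its letters, GAAA, any 2 bases and GAAA again, searched on both strands, were in 19 of 37 matched promoter windows of interferon-stimulated genes (51.4%) and in 3.11% of the 10756 windows of tested genes. The window of Cxcl10 (chr5:92348890-92349139, minus strand, RefSeq GRCm38.p6) is shown with the match in capitals.
Cxcl10: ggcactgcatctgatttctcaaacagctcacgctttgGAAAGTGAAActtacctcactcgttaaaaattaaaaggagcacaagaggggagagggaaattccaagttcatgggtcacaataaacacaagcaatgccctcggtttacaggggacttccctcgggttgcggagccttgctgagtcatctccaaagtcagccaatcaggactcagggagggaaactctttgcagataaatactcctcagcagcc
A match is a run of letters in a window and does not show binding.

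The sensors themselves were mixed. Of 21 tested sensing genes 7 were higher in the DMSO cells and 13 lower (median -0.75). Cgas, the DNA sensor, was at 41.0 and 43.5 CPM in the DMSO cells and at 4.83 and 5.26 in the knockdown controls (3.06 ± 0.12), opposite to the interferon-stimulated genes. STING (Tmem173) was at 14.96 and 16.3 against 25.5 and 29.1 CPM (-0.81 ± 0.11), and the kinase Tbk1 (0.59 ± 0.10) and the factor Irf3 (-0.71 ± 0.09) were within 2-fold. The RNA sensors Ifih1 (3.54 and 2.69 against 181 and 194 CPM, -5.91 ± 0.10) and Ddx58 (-3.73 ± 0.08) and the interferon-inducible DNA sensor genes Ifi203 (-6.37 ± 0.09) and Ifi204 (-2.98 ± 0.09) were higher in the knockdown controls. Aim2 was at 0 and 1 counts in the DMSO cells and at 1123 and 1442 in the knockdown controls. The nucleotide hydrolase Samhd1 was higher in the DMSO cells (1.81 ± 0.07).

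Antigen presentation genes went with the interferon-stimulated genes. Of 15 tested 14 were lower in the DMSO cells, 12 past the 2-fold test (median -4.11). The class I heavy chains H2-K1 (43.3 and 44.0 against 1122 and 976 CPM, -4.59 ± 0.07) and H2-D1 (-4.06 ± 0.06), the light chain B2m (185 and 186 against 1383 and 1385 CPM, -2.90 ± 0.04), the peptide pump Tap1 (-4.17 ± 0.09) and the class I transactivator Nlrc5 (-4.38 ± 0.11) were lower, and Psmb10 was higher (1.37 ± 0.13). H2 genes are close paralogues, and reads between them may have been split. The class II chaperone Cd74 was at 4.15 and 3.87 against 388 and 380.0 CPM (-6.58 ± 0.08), without its usual partners: Ciita was at 3 counts in each library and H2-Ab1 at 4 counts or fewer.

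Endoplasmic reticulum chaperones stood at extreme levels in the knockdown controls. Of 21 genes of the unfolded protein response 20 were lower in the DMSO cells, 18 past the 2-fold test, and 0 higher (median -2.59). Hspa5 (BiP), the main chaperone of the compartment, was at 553 and 563 CPM in the DMSO cells and at 21709 and 21901 in the knockdown controls (-5.29 ± 0.04). Sdf2l1 (14.96 and 11.2 against 625 and 582 CPM, -5.53 ± 0.08), Creld2 (-4.58 ± 0.06), Xbp1 (20.9 and 24.4 against 469 and 470.5 CPM, -4.37 ± 0.07), Hyou1 (-3.77 ± 0.05) and Hsp90b1 (-2.93 ± 0.04) had the same direction, and Derl3 did not pass. Hspa5 was at 2135 CPM of the total in the first SSTC3 library, 13561 in the first CK1α knockdown library and 832 in the first overexpression control. The endoplasmic reticulum stress response element ERSE, that is CCAAT, any 9 bases and CCACG on either strand, was in 9 of 19 matched windows of this group (47.4%) and in 18 of 10756 (0.167%). It is shown in capitals in the Hspa5 window (chr2:34771840-34772089, plus strand, RefSeq GRCm38.p6).
Hspa5: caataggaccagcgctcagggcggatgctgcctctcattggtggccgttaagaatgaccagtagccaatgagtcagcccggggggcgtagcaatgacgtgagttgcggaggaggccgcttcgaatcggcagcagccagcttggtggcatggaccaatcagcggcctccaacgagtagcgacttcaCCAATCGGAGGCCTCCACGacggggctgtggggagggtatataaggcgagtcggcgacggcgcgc

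The integrated stress response, which shares Ddit3 with the former, was less uniform: 6 of 25 genes were higher in the DMSO cells and 17 lower (median -1.10). Ppp1r15a (GADD34), which restarts translation, was at 31.2 and 32.1 against 1676 and 1543 CPM (-5.67 ± 0.06), Trib3 at -3.77 ± 0.07 and Ddit3 (CHOP) at -3.34 ± 0.07. The serine synthesis genes Psat1 (0.84 ± 0.04) and Phgdh (0.90 ± 0.05) were higher in the DMSO cells. Of 23 that could be followed 15 kept their direction between SSTC3 and CK1α knockdown and 7 were called in the opposite one.

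Immediate early genes, which respond within minutes to growth factors and stress, were higher in the knockdown controls at baseline and mostly the other way in the other libraries. Of 28 genes 26 were lower in the DMSO cells, 25 past the 2-fold test, and 2 higher (median -3.81). Egr1 was at 3.82 and 5.72 against 753 and 763 CPM (-7.31 ± 0.09), Fos at 0.609 and 0.561 against 50.9 and 47.5 (-6.37 ± 0.17), Jun at 15.7 and 11.8 against 389 and 379 (-4.80 ± 0.08) and Dusp6, a feedback phosphatase of ERK signalling, at 0.997 and 1.01 against 136 and 145 (-7.12 ± 0.12). Between SSTC3 and CK1α knockdown 5 of 28 were called in the same direction and 21 in the opposite one, with a relative median of 1.36: Egr1 stood at 2157 CPM of the total in the first SSTC3 library and at 83.9 in the first CK1α knockdown library. Myc was at 3.38 and 3.48 against 1029 and 1006 CPM (-8.21 ± 0.07) at baseline, and at 77.1 and 424 CPM of the total in the first SSTC3 and CK1α knockdown libraries.

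Cholesterol synthesis was higher in the DMSO cells: 22 of 24 genes were higher, 18 past the 2-fold test, and 2 lower (median 1.89). Hmgcs1, an early enzyme of the mevalonate pathway, was at 231 and 243 against 36.7 and 40.0 CPM (2.62 ± 0.06), Idi1 at 104 and 112 against 9.46 and 11.6 (3.35 ± 0.09), and the regulator Srebf2 at 538 and 516 against 223 and 221 (1.25 ± 0.05). Insig1, a sterol sensor of the same pathway (-1.35 ± 0.05), and Ebp (-1.13 ± 0.08) went the other way. Of 24 genes 19 kept their direction between SSTC3 and CK1α knockdown and 3 were called in the opposite one.

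Lysosomal genes were higher in the knockdown controls, with 30 of 35 tested genes of autophagy and the lysosome lower in the DMSO cells, 20 past the 2-fold test, and 3 higher (median -1.24). Gpnmb, a glycoprotein of lysosome-rich and pigmented cells, was at 1.99 and 1.80 against 3441 and 3359.5 CPM (-10.80 ± 0.07). Progranulin (Grn, 125 and 129 against 1513 and 1456 CPM, -3.54 ± 0.05), cathepsin B (Ctsb, -2.93 ± 0.05), the autophagy receptor Sqstm1 (-2.73 ± 0.05) and Hexa (-2.53 ± 0.06) followed. The membrane protein Lamp1 did not differ beyond error (706 and 716 against 677 and 726 CPM, adjusted p = 0.70, edgeR; with library totals it was called, at 0.18), and the initiating kinase Ulk1 was higher in the DMSO cells (1.18 ± 0.07).

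Genes of respiration and translation differed by smaller amounts. Of 30 nuclear subunits of the respiratory chain 25 were lower in the DMSO cells and 4 higher (median -0.34), 7 past the 2-fold test, all lower, among them Cox5a (-1.64 ± 0.05) and Sdhc (-1.30 ± 0.05). Mitochondrially encoded genes went the other way, with 8 of 12 higher and 1 lower (median 0.89): mt-Nd1 was at 3164 and 3316 against 1386 and 1441 CPM (1.20 ± 0.04), while mt-Cytb did not pass the test (0.00 ± 0.04; with library totals it was called, at 0.17) and mt-Co1 lower (-0.27 ± 0.04). Of 38 ribosomal protein genes 29 were lower and 7 higher (median -0.45). Rps18 (2.97 ± 0.05) and Rps2 (2.65 ± 0.06) stood against that direction. Both have processed copies in the genome, and how the counting divided reads among copies is not given in the sources used here.

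Whole chromosomes stood apart as well. Relative to the median of all genes, the median of the 817 tested genes of chromosome 8 was 0.89, that of the 466 genes of chromosome X 0.69, of chromosome 19 0.56 and of chromosome 16 0.55. Chromosomes 7 (-0.41) and 6 (-0.39) lay lowest, and the other 14 between -0.29 and 0.37. Among genes at 5 CPM or more in every library, 78.5% of the 508 on chromosome 8 had a log2 difference above 0, against 53.4% of all such genes. Each of its 12 windows of 10 Mb with at least 10 such genes had a median log2 difference above 0 (0.55 to 1.57, not relative). Of 233 such windows in the genome 52 had a median of at least 0.5, 28 of them on chromosomes 8, 16, 19 and X, and 16 had a median of -0.5 or lower. These chromosomes are named for their high medians, so their high windows follow from that choice. Set against the MEF-labelled overexpression controls, the genes of chromosome 8 had a relative median of 0.08 in the DMSO cells and -0.76 in the knockdown controls, and those of X -0.10 and -0.57. On both, the DMSO cells lay near the overexpression controls and the knockdown controls below them. For chromosome 19 the DMSO cells were the ones further away (0.43 against -0.09). Between SSTC3 and CK1α knockdown chromosome 8 had a relative median of 0.84 and X of 0.51.

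**Figure D5:**
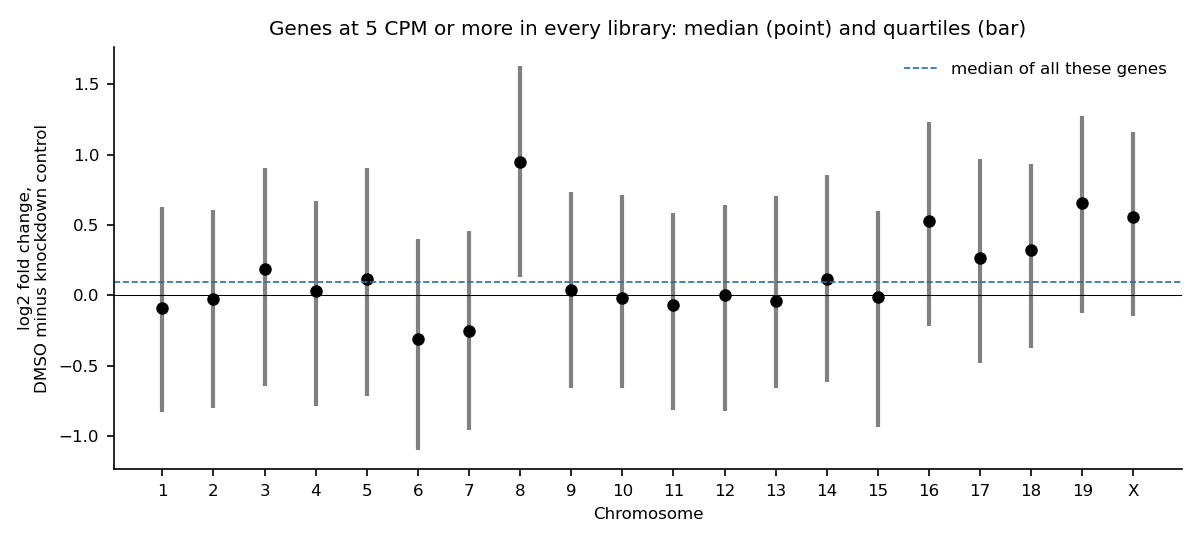
Median (point) and quartiles (bar) of the log2 difference, DMSO minus knockdown control, over genes at 5 CPM or more in every library, by chromosome, with the median over all such genes (0.09) as a dashed line. Chromosome 8 lies highest at 0.95, followed by 19, X and 16, and chromosomes 6 and 7 lie lowest.

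Across all genes, 12589 were called at baseline and tested between SSTC3 and CK1α knockdown, which share no library with the baseline comparison but add treatment to the cell set. Of these 10170 (80.8%) were called in the same direction and 945 in the opposite one. Among the 6984 genes past the 2-fold test 6416 (91.9%) were called in the same direction and 192 in the opposite one.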

How the data were processed

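Gene counts of paired 150-base reads from poly(A)+ RNA (Illumina HiSeq, per the labels' protocols) were deposited as raw counts by the authors. HISAT2, featureCounts and mm10 are named in the submitters' processing notes. Their versions, the annotation and the strand setting were not given in the sources used here. Of 54532 features, 15572 passed edgeR's filterByExpr in the 4 libraries (16063627 to 17843704 counts each, which bounds counting error only). With R 4.3.3 and edgeR 4.0.16, TMM factors, a robust quasi-likelihood test, and glmTreat for 2-fold differences were used, each with Benjamini-Hochberg adjustment over all genes tested (adjusted p under 0.05). The test was also run on simulated counts in which few genes changed, equally in both directions. There 68.7% of 1.5-fold and 86.6% of 2-fold changes were recovered. As most genes were called in these data, this does not check the scaling or the error rate here. Alternatives used DESeq2 1.42.0, limma 3.58.1 (voom), other scalings, filters and sets of libraries, a replicate block, and each library left out. Gene positions come from GENCODE vM21 and promoter windows from RefSeq (GRCm38.p6), matched by symbol. Figures were drawn with matplotlib 3.10.9.

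The members, the comparison and the 44 gene lists (1025 genes, 820 tested) were chosen with earlier results of these data known, so list counts are descriptions without a set test. The text names the 12 largest changes in each direction at 10 CPM or more with no overlap, up to 5 large and 2 small changes of each list, all genes of short lists, the Hox genes and a fixed panel. Some genes that this rule gives are not reported here. Other list members, and Mtap, Klhl9, Focad, Ifna4 and Ifnb1, were named after their values were seen. Within each group the 2 libraries differed by more than sampling noise (chi-square per degree of freedom of 2.99 and 3.61) and were kept as 2 replicates.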

Additional observations from a re-analysis of the deposited data

How the results depend on the processing

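With edgeR on library totals the median log2 difference of all genes turned from -0.06 to 0.10, and with RLE factors it was -0.073, which is why medians are given relative to it. Taken so, the medians of the 41 lists with at least 5 tested genes moved by less than their spread under both scalings. Calls numbered 13182 in the reported fit, 13185 with RLE factors, 13287 with library totals (7017 of them higher), 12465 with DESeq2, 13063 with limma-voom, 14808 without a filter, 12382 at 1 CPM in 2 libraries, 13737 and 13809 with 8 and 12 libraries in the fit, and 12476 to 12978 with a library left out, where the lone library is assumed to vary like the other group. Past the 2-fold test the counts ran from 6849 to 8528, and from 6919 to 7517 with a library left out. Under each of these settings, the genes called both there and in the reported fit had the same direction. The fit with a replicate block called 13124 genes, 7429 of them past 2-fold. Replicate 1 libraries of the 2 groups did not deviate together (r = 0.0047 across 15572 genes), so the numbers are only shared. Genes read only in the DMSO cells numbered 168 at 5 CPM, 79 at 20 CPM and 190 where at most 2 counts passed as absent. Those read only in the knockdown controls numbered 161 at 5 CPM, 58 at 20 CPM and 159 where at most 2 counts passed as absent. Among genes at 5 CPM or more in every library the relative medians were -0.34 for chromosome 7, 0.86 for 8, 0.43 for 16 and 0.46 for X. Of 3379 values of 260 named genes, 3364 kept direction and call, 11 lost the call, 3 gained it, and Pgk1 turned from an uncalled -0.01 to a called 0.16 with library totals. Differences that a count of 0 to 3 limits are given as counts or bounds.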

Other observations

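Genes of hypoxia and glycolysis differed in both directions. Of 24 tested genes of hypoxia and glycolysis 10 were higher in the DMSO cells and 13 lower, 3 and 8 of them past the 2-fold test, with a median of -0.41 relative to all genes. Several genes known to follow low oxygen were higher in the knockdown controls: Car9, a carbonic anhydrase of the cell surface, was at 1.72 and 1.96 against 300.2 and 304 CPM (-7.35 ± 0.09), Ndrg1 at 40.3 and 47.6 against 719 and 738 (-4.05 ± 0.06), the oxygen-dependent hydroxylase Egln3 at 12.6 and 13.5 against 150.1 and 141 (-3.48 ± 0.08), and Vegfa was lower in the DMSO cells too (-1.31 ± 0.05). Glycolytic enzymes of the same list lay on both sides. Pgam1 was higher in the DMSO cells (1.37 ± 0.04), Eno1 (0.26 ± 0.04) and Ldha (0.44 ± 0.04) were within 1.5-fold, Pgk1 did not pass (adjusted p = 0.86, edgeR, -0.01 ± 0.04; with library totals it was called, at 0.16), and the phosphofructokinase isoforms were exchanged, with Pfkl higher (299 and 290.4 against 133 and 121 CPM, 1.22 ± 0.05) and Pfkp lower (57.4 and 52.9 against 402 and 389.8 CPM, -2.84 ± 0.06) in the DMSO cells. Between SSTC3 and CK1α knockdown 13 of 23 called genes of the list kept their direction and 7 were called in the opposite one.

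Detoxifying genes and cytosolic chaperones also differed. The metal-binding protein Mt1 was at 115 and 119 against 2195 and 2071 CPM (-4.19 ± 0.05), and the glutathione transferases Gstm1 (-2.60 ± 0.05) and Gstm2 (-3.74 ± 0.08) and sulfiredoxin Srxn1 (-3.12 ± 0.07) were lower in the DMSO cells. Their list held 6 genes higher and 16 lower of 24, with Nqo1, a common reporter of NRF2, the other way (1.19 ± 0.15). Cytosolic heat shock genes were higher in the DMSO cells for 10 of 15 and lower for 4 (median 0.82), opposite to the chaperones of the endoplasmic reticulum, with Hsp90aa1 at 1478 and 1494.8 against 254 and 270.1 CPM (2.50 ± 0.05) and Hsp90ab1 at 5212 and 5126 against 1826 and 1753 (1.53 ± 0.04). Among TGF-beta and YAP responsive genes 7 of 16 were higher and 8 lower (median -0.16), and the related matricellular genes Ccn1 (-1.79 ± 0.05) and Ccn2 (20.5 and 20.5 against 0.331 and 0.532 CPM, 5.53 ± 0.24) went in opposite directions, 23.2% of the exonic bases of Ccn2 being shared with a neighbouring gene.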
